A study of Mus musculus with 71 samples.

Results

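The transcripts described here encode 8 purine or purine-related receptors and 1 ectonucleotidase, which were measured in microglia sorted from 6 mouse models of brain injury or disease. The 9 genes, P2ry12, P2ry13, P2ry14, P2ry6, P2rx4, P2rx7, Gpr34, Adora3 and Entpd1, were selected by symbol from the 55413 genes of each expression table, and all 9 were listed in all 6 tables. Mice carried a reporter in which GFP marks expression of Spp1, the gene of the secreted phosphoprotein osteopontin, and GFP-positive and GFP-negative microglia were sorted from the same disease model. Each of the 67 bulk libraries was made from 2000 sorted cells with a modified SMART-Seq2 protocol. The labels do not say how many mice entered a library, so p-values measure the spread between libraries, part of which may be technical.

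In 4 adult models the reference libraries came from wild-type (WT) mice without disease, and the sorted libraries from Spp1-GFP heterozygous mice. Disease, reporter genotype and gate therefore change together between sorted and reference libraries of these models and cannot be told apart. The cuprizone model, a demyelinating diet given for 5 weeks to mice aged 8 to 10 weeks, had 4 reference, 3 GFP-negative and 3 GFP-positive libraries. The glioma model, in which CT2a tumour cells had grown for 21 days in mice aged 8 to 10 weeks, had 4 libraries in each group. Experimental autoimmune encephalomyelitis (EAE), sampled in mice aged 8 to 10 weeks that had recovered to a clinical score of 1 to 2, had 3 libraries in each group. The 5xFAD model had 4 libraries in each group at an age of 7 months, and its sorted cells came from mice heterozygous for both the 5xFAD transgenes, which a neuronal promoter drives, and Spp1-GFP. In the stroke models, every group came from Spp1-GFP heterozygous mice. Stroke was induced at postnatal day 6 (P6) with collection at day 9, or at day 28 (P28) with collection at day 35. The reference there was contralateral cortex of the brain, with 4 libraries in each group at each age, and column headers mark the contralateral cells as GFP-negative.

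Purinergic signalling lets microglia read nucleotides that leak or are released from neighbouring cells. ATP opens P2X channels, ADP and UDP act on P2Y receptors coupled to G proteins, and the ectonucleotidase CD39, encoded by Entpd1, strips phosphates from extracellular ATP and ADP. Other enzymes turn the resulting AMP into adenosine, the ligand of the Adora receptors. In microglia, P2RY12 is known for guiding processes towards injury and is widely used as a marker of the homeostatic state.

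Depth is unknown because no file used here holds read counts, and values therefore carry no counting interval. Spp1 checked the gate: its mean was between 439 and 1873 TPM (a level scaled for transcript length and for the total of the library) in the GFP-positive groups and between 4.40 and 99.5 TPM in the GFP-negative groups. The microglial markers Tmem119, Cx3cr1, Sall1, Csf1r and Fcrls were all detected in every group. The summed level of these 5 markers fell to 1790.2 to 3068 TPM in GFP-positive glioma libraries from 15681 to 16108 TPM in their reference. Sex-linked transcripts placed 2 female and 2 male libraries in the cuprizone reference and only male ones in its sorted groups, only female libraries in 5xFAD, 2 of each sex in every P6 group and only male libraries elsewhere.

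GFP-positive cells had less of the ADP receptors P2ry12 and P2ry13, the lysophosphatidylserine receptor Gpr34 and Entpd1 than the reference in 5 of 6 models each, and more of the ATP channel P2rx4 in all 6, with and without rescaling of the libraries to their median gene. The UDP receptor P2ry6 and the adenosine receptor Adora3 were also lower in 5 of 6 models, but after rescaling in 2 and 4. Over the 6 tables, 53 of the 54 comparisons of a gene between GFP-positive and GFP-negative cells could be tested, since P2ry14 was too low in the cuprizone table. Of these, 24 were lower and 3 higher in GFP-positive cells, where 7.88% of all gene tests were called lower, 2% higher and 9.88% either way. Against the reference, GFP-positive cells had 34 lower and 9 higher values of 53, with 24.9% of all tests called lower, 7.42% higher and 32.3% either way. GFP-negative cells had 21 lower and 4 higher values of 53 against the reference, with 12.1% of all tests called lower, 4.48% higher and 16.6% either way. These 3 comparisons share libraries, so their values are set side by side and not counted as separate evidence. Calls are adjusted p-values under 0.05 from limma on log2(TPM + 1), fitted within each table and adjusted over all its tested genes.

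Deposited TPM are relative to the total of a library, and the median gene of all tested also moved. Between GFP-positive and GFP-negative cells it moved by -0.25 in cuprizone, -0.15 in glioma, 0.05 in EAE, -0.29 in 5xFAD, -0.12 in the P6 stroke and -0.30 in the P28 stroke, on the log2 scale. Against the reference it moved by -0.37 in glioma, -0.47 in EAE and -0.28 in 5xFAD for GFP-negative cells, and by -0.57 to -0.17 over the models for GFP-positive cells. After median-of-ratios rescaling, which sets that median near 0, 17 values were lower and 5 higher between GFP-positive and GFP-negative cells, 13 lower and 5 higher between GFP-negative cells and the reference, and 28 lower and 9 higher between GFP-positive cells and the reference. Over all genes, the rescaled shares called lower and higher were 2.37% and 3.68% between the gates, 3.76% and 6.5% between GFP-negative cells and the reference, and 8.75% and 12.2% between GFP-positive cells and the reference. The split between lower and higher calls thus turned over among all genes, whereas lower calls stayed the more frequent among the 9.

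**Figure D1:**
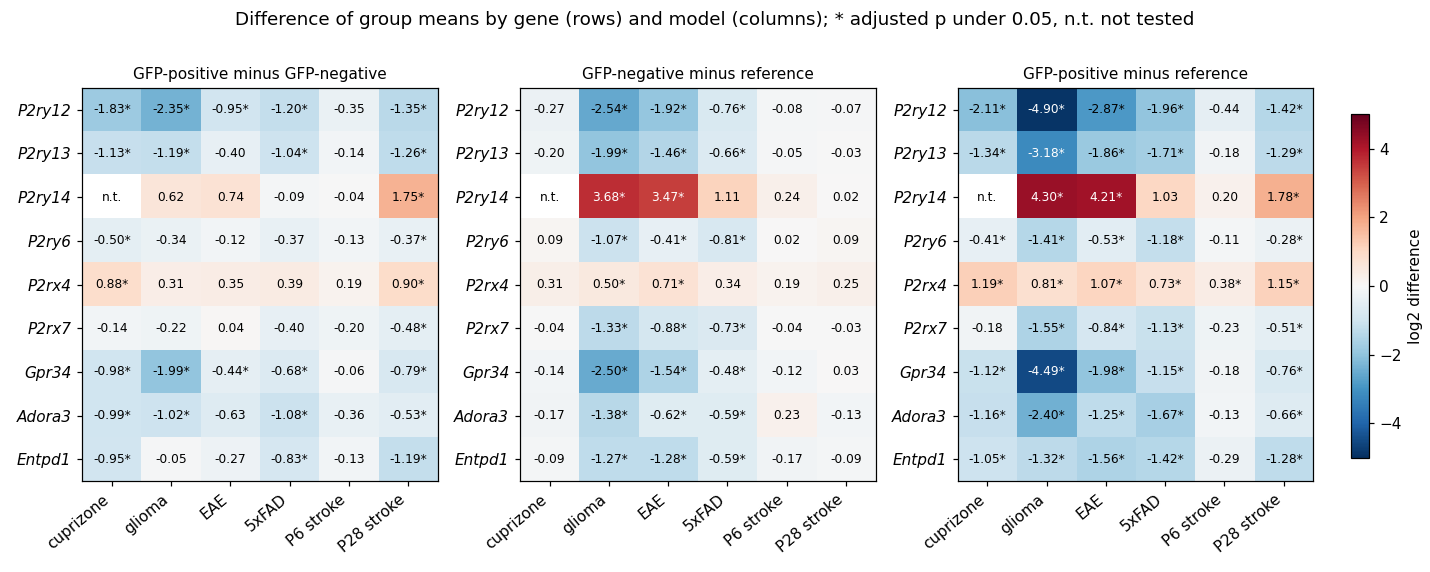
Differences in mean log2(TPM + 1) for the 9 genes (rows) in the 6 models (columns), one panel for each comparison, with colour and printed value on the log2 scale and an asterisk where the adjusted p is under 0.05. P2ry12 ranged from -2.35 to -0.35 between GFP-positive and GFP-negative cells, whereas P2rx4 was positive in every cell of the plot and P2ry14 reached 4.30 in glioma.

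In the reference groups P2ry12 was the most abundant of the 9 transcripts and made up from 55.9% ± 0.778 (SD, n = 4) of their summed TPM, in the P28 stroke table, to 64.1% ± 1.304 (SD, n = 4), in the cuprizone table. Gpr34 stood second in all 6 reference groups, and the ranges of P2ry12 and Gpr34 libraries did not overlap in any of them. Entpd1, P2ry6 and P2ry13 took the middle ranks in an order that differed between tables, and some neighbours among them overlapped in 4 of the 6 tables. P2ry14 was last in all 6 reference groups, with no library above 3.48 TPM.

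The summed TPM of the 9 genes was 11644 ± 2034 (SD, n = 4) in the glioma reference, 2919 ± 1232 in GFP-negative glioma cells and 1372 ± 209 in GFP-positive ones. P2ry12 no longer led in GFP-positive glioma cells, where its share was 16.5% ± 4.05 (SD, n = 4) and Entpd1, P2ry6 and P2rx4 had higher means. The libraries of these genes overlapped there, at 134 to 323 TPM for P2ry12, 231 to 332 for Entpd1, 246 to 263 for P2ry6 and 228 to 273 for P2rx4. In the other 5 models P2ry12 kept the first rank in GFP-positive cells, with a share from 29.8% ± 1.34 (SD, n = 3) in EAE to 53.1% ± 2.11 (SD, n = 4) in the P6 stroke. The share of P2rx4 in GFP-positive cells was 18.9% ± 3.74 (SD, n = 4) in glioma, 11.6% ± 0.623 (SD, n = 3) in EAE and 7.57% ± 1.19 (SD, n = 3) in cuprizone, against at most 1.95% ± 0.336 (SD, n = 4) in any reference group. Shares of a fixed sum are not independent of each other, so they are given as a description.

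**Figure D2:**
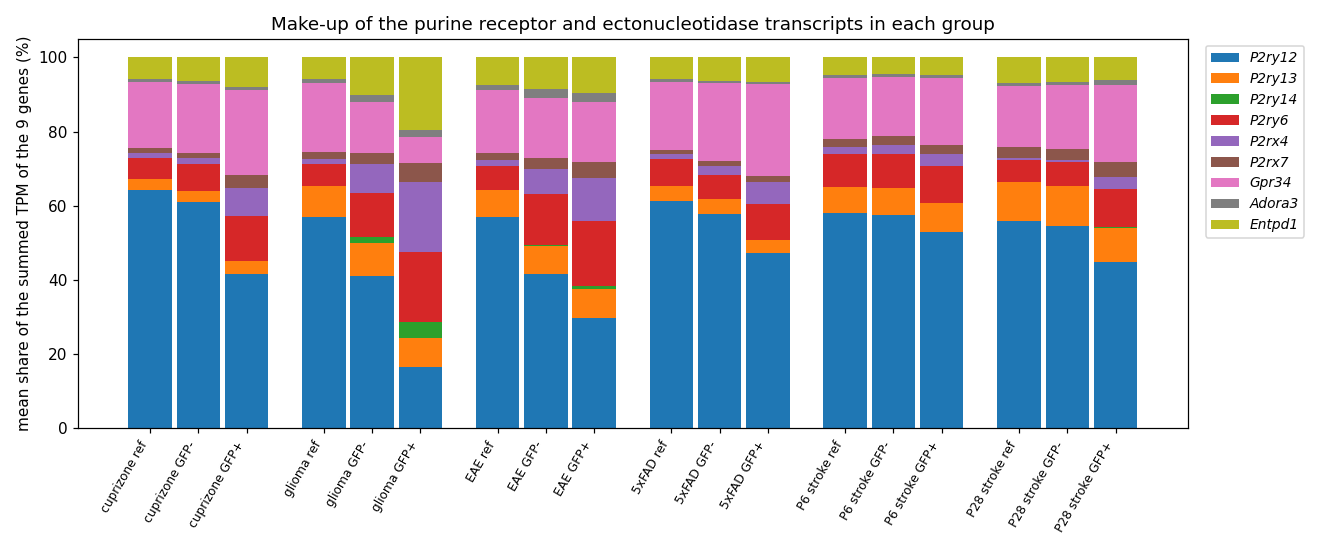
Mean share of each gene in the summed TPM of the 9 genes (y axis, percent) for the reference (ref), GFP-negative (GFP-) and GFP-positive (GFP+) group of each model (x axis). The P2ry12 block shrinks from 56.9% in the glioma reference to 16.5% in GFP-positive glioma cells, while the P2rx4 block grows from 1.27% to 18.9%.

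P2ry12, the Gi-coupled ADP receptor of microglial processes, fell in GFP-positive against GFP-negative cells in 5 of 6 models. In glioma the GFP-positive libraries held 323, 284, 134 and 186 TPM, the GFP-negative libraries 890.4, 2392, 704 and 1061 TPM and the reference libraries 6120.2, 5068, 8323 and 7128 TPM. The 3 glioma groups were ordered without overlap, and the second GFP-negative library was the highest of its group. The difference between GFP-positive and GFP-negative cells was -2.35 (SE 0.35, adjusted p = 0.0034) on the log2 scale. In cuprizone, GFP-positive libraries held 2639, 2217 and 1751 TPM, against 8415, 7414 and 7423 TPM in GFP-negative and 8124, 9341, 10191 and 9892 TPM in reference libraries. Only the GFP-positive cuprizone group stood apart, at -1.83 (SE 0.12, adjusted p = 2.35e-06) against GFP-negative cells, while GFP-negative cells differed from the reference by -0.27 (SE 0.12, adjusted p = 0.589). The 5 microglial markers were all called lower between the cuprizone gates as well, summing to 6363 to 8234 TPM in GFP-positive and 13827 to 15524 TPM in GFP-negative cells. Markers of border-associated macrophages (Mrc1, Pf4, Cd163, Lyve1 and Cbr2) summed to 229.9 to 327 TPM in the cuprizone reference, 49.9 to 186 TPM in GFP-negative and 36.4 to 69.8 TPM in GFP-positive cells, where all 5 were called lower than in the reference. The part of either list in the cuprizone values was not tested.

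EAE showed the step already outside the gate. Its reference libraries held 7412, 6986 and 7130.2 TPM, its GFP-negative libraries 1939, 1899 and 1866 TPM and its GFP-positive libraries 948, 1050.5 and 952 TPM, with no overlap between groups. P2ry12 differed by -1.92 (SE 0.07, adjusted p = 8.39e-08) between GFP-negative cells and the reference, and by -0.95 (SE 0.07, adjusted p = 0.00126) between the gates, the latter at an adjusted p of 0.063 without the variance trend. In 5xFAD the reference held 8596, 8784, 9213 and 9554 TPM, GFP-negative cells 4919.5, 4979, 5258 and 6259 TPM and GFP-positive cells 2386, 2238, 2291 and 2347 TPM. These 3 groups were again fully separated, with -0.76 (SE 0.07, adjusted p = 8.93e-06) for GFP-negative cells against the reference and -1.20 (SE 0.07, adjusted p = 3.11e-07) between the gates. The 5 microglial markers summed to 16798 to 17805 TPM in the EAE reference and to 5829 to 9297 TPM in GFP-negative cells, where all 5 were called lower. In 5xFAD their sum was 14753 to 16478 TPM in the reference and 3758 to 5793 TPM in GFP-positive cells, again with all 5 called lower. The part of these markers in the result was not tested, and in bulk libraries fewer cells of a type and less RNA per cell cannot be told apart.

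P2ry13, a second Gi-coupled ADP receptor, fell between the gates in cuprizone, glioma, 5xFAD and the P28 stroke. In 5xFAD its GFP-positive libraries held 187, 179, 187 and 172 TPM, its GFP-negative libraries 369, 319, 357 and 469 TPM and its reference libraries 573, 628, 522 and 664 TPM, with no overlap. The difference between the 5xFAD gates was -1.04 (SE 0.12, adjusted p = 7.12e-05), and in cuprizone it was -1.13 (SE 0.15, adjusted p = 0.000437). In glioma the P2ry13 difference of -1.19 (SE 0.30, adjusted p = 0.0354) was lost when any of 7 libraries was left out, reference 4, GFP-negative 1, 2 or 4 and GFP-positive 2, 3 or 4, at adjusted p-values of 0.0514 to 0.108. It was also lost after rescaling, at -1.01 (adjusted p = 0.0584), without the filter on low values, without the variance trend and with only the 2 groups in the fit, at adjusted p-values of 0.089, 0.0608 and 0.0733. In the P28 stroke P2ry13 held 515, 426, 456 and 752 TPM in GFP-positive cells, 1504, 1125, 1124 and 1324 TPM in GFP-negative cells and 1481, 1073, 1245 and 1379 TPM in contralateral cells. Only the GFP-positive P28 libraries stood apart, at -1.26 (SE 0.16, adjusted p = 0.000134) against GFP-negative cells. In EAE the P2ry13 difference between the gates was -0.40 (SE 0.10, adjusted p = 0.159), while GFP-negative cells lay at -1.46 (SE 0.10, adjusted p = 7.18e-06) against the reference. GFP-negative 5xFAD cells differed from the reference by -0.66 (SE 0.12, adjusted p = 0.00203), or -0.32 (adjusted p = 0.118) after rescaling.

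The mean ratio of the ADP receptor pair was lower in GFP-positive cells than in the reference of every model, and it was not tested. P2ry12 exceeded P2ry13 by 6.80 ± 0.58 times (SD, n = 4) in glioma reference libraries and by 2.14 ± 0.605 times in GFP-positive ones. After the P28 stroke the same ratio was 5.29 ± 0.301 times in the reference and 4.85 ± 0.103 times in GFP-positive cells (SD, n = 4 each). The means went from 20.7 to 12.2 in cuprizone, 7.78 to 3.87 in EAE, 15.3 to 12.8 in 5xFAD and 8.15 to 6.88 in the P6 stroke. In both stroke models the ranges of the reference and GFP-positive libraries overlapped.

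**Figure D3:**
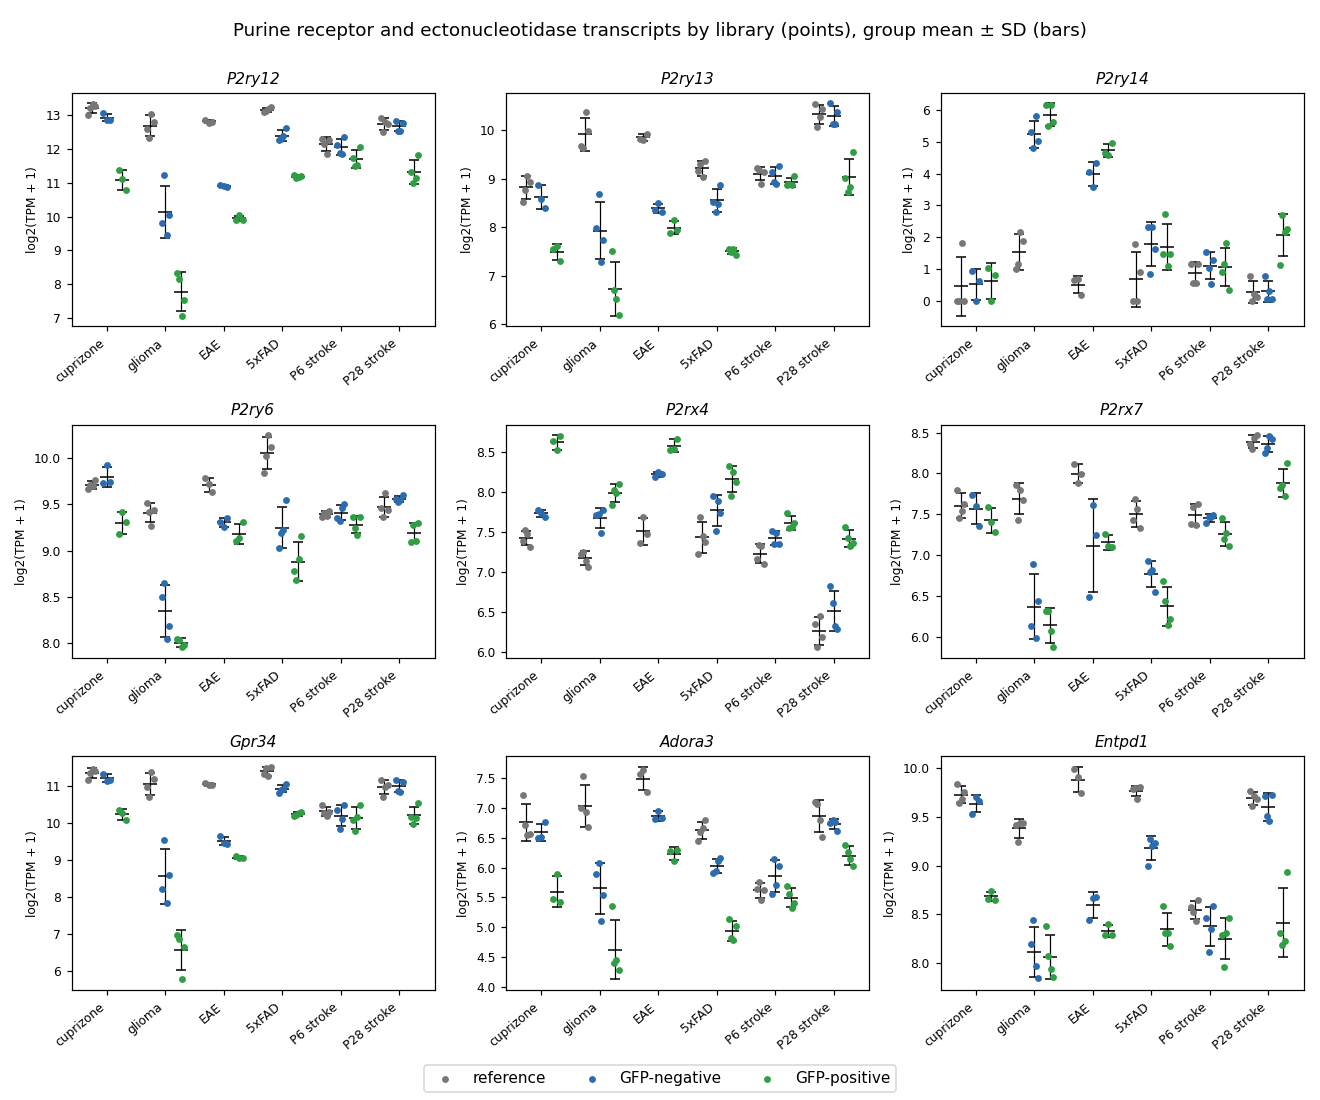
Level of each gene as log2(TPM + 1) (y axes, which differ between panels) in every library (points) of the reference (grey), GFP-negative (blue) and GFP-positive (green) groups of the 6 models (x axis), with black bars for the group mean ± SD. In EAE and 5xFAD the 3 groups of P2ry12 stand at 3 separate levels, whereas in cuprizone and the P28 stroke only the GFP-positive group stands apart.

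P2ry12, P2ry13 and P2ry14 lie side by side on mouse chromosome 3, on the minus strand and inside the larger gene Med12l of the plus strand. In the GENCODE annotation of build GRCm38, P2ry12 spans chr3:59216272-59262871, P2ry13 chr3:59207892-59210882 and P2ry14 chr3:59113855-59153618, with 5389 bases between the first pair and 54273 bases between P2ry13 and P2ry14. P2ry12 and P2ry13 were each called lower in GFP-positive cells than in the reference in 5 models, whereas P2ry14 was called higher in 3, so the promoters of all 3 are printed beside that of P2rx4, the other transcript that rose. The windows are RefSeq's, in build GRCm38.p6, from 250 bases before to 50 bases after the start of transcription, printed 5′ to 3′ along the gene. Of the 9 genes, 7 had such a window. Capitals mark AGGAAGT, a PU.1 or ETS motif, TGANTCA, an AP-1 motif, or TCACGTG, an E-box motif of the MiT/TFE factors, each searched on both strands.
P2ry12 promoter, chr3:59262936-59263235, minus strand: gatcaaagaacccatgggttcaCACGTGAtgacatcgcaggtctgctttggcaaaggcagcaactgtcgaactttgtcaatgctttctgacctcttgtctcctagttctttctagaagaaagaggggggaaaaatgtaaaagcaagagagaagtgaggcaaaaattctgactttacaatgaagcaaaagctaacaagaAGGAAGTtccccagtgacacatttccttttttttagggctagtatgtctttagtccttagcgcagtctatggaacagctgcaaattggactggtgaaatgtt
P2ry13 promoter, chr3:59210833-59211132, minus strand: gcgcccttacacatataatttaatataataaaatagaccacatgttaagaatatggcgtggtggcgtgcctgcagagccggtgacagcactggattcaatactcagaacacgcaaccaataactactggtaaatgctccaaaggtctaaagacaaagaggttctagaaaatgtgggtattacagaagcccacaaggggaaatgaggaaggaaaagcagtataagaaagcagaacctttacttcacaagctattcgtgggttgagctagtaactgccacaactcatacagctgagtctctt
P2ry14 promoter, chr3:59153443-59153742, minus strand: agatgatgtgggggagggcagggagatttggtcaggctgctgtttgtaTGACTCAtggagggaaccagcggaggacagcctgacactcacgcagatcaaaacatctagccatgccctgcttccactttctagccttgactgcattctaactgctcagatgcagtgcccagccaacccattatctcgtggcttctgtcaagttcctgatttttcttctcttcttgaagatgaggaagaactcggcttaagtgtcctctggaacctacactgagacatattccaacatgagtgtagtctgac
P2rx4 promoter, chr5:122707294-122707593, plus strand: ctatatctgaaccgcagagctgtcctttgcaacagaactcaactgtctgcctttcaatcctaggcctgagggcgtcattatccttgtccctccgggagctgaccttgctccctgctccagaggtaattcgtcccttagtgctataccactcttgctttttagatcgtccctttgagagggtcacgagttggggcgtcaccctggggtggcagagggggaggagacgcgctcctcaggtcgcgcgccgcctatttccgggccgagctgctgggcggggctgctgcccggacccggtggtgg
The P2ry12 window held AGGAAGT, which 9.35% of all 32851 windows hold, and TCACGTG, which 3.77% hold. The P2ry14 window held TGANTCA, found in 7.81% of windows, and the windows of P2ry13 and P2rx4 held none of the motifs. The MEF2 core motif, found in 3.69% of windows, was in none of the 4 printed. These matches describe letters in the windows and are not evidence of binding.

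P2ry14, a receptor for UDP-glucose and related sugar nucleotides, was the only P2Y gene of the 9 to rise, and it rose from levels near 0. In the EAE reference it was at 0.57, 0.62 and 0.15 TPM, in GFP-negative cells at 15.6, 11 and 19.0 TPM and in GFP-positive cells at 23.8, 23.0 and 30.1 TPM. Both sorted EAE groups stood above the reference without overlap, by 3.47 (SE 0.28, adjusted p = 2e-05) for GFP-negative and 4.21 (SE 0.28, adjusted p = 3.37e-06) for GFP-positive cells. In glioma the levels were 0.99, 1.24, 3.48 and 2.66 TPM in the reference, 38.2, 27.1, 54.7 and 31.5 TPM in GFP-negative and 70.7, 44.1, 69.7 and 47.8 TPM in GFP-positive cells. Here too both sorted groups exceeded the reference, by 3.68 (SE 0.29, adjusted p = 8.98e-07) and 4.30 (SE 0.29, adjusted p = 1.15e-07), whereas the gates overlapped and differed by 0.62 (SE 0.29, adjusted p = 0.232).

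Only in the P28 stroke did P2ry14 pass the test between the gates. Its GFP-positive libraries held 1.20, 5.48, 3.44 and 3.76 TPM, against 0.71, 0.05, 0.24 and 0.05 TPM in GFP-negative and 0.72, 0, 0.16 and 0.1 TPM in contralateral libraries. The GFP-positive group lay above both, with 1.75 (SE 0.35, adjusted p = 0.00259) against GFP-negative cells, at levels where the added 1 TPM makes the fold change an understatement. In 5xFAD P2ry14 did not pass, at 1.77, 5.69, 1.15 and 1.81 TPM in GFP-positive and 0, 2.45, 0 and 0.89 TPM in reference libraries and a difference of 1.03 (SE 0.53, adjusted p = 0.132), which passed without reference library 2 at an adjusted p of 0.0499. Levels in cuprizone did not exceed 2.55 TPM in any library. Med12l, the gene around the cluster, which encodes a Mediator subunit, was itself lower in GFP-negative glioma cells (4.11 ± 1.04 TPM) than in the reference (10.5 ± 3.39 TPM; SD, n = 4), at -1.15 (SE 0.27, adjusted p = 0.00308). The library protocol named in the labels does not mark strand, so reads could come from either gene where their transcripts overlap. Only whole gene spans were compared here, and overlap of exons was not checked.

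Markers of monocyte-derived cells were higher beside P2ry14 in glioma and, in part, in the P28 stroke, whereas in EAE they did not follow P2ry14 into the GFP-positive cells. The 6 monocyte-derived cell markers Ccr2, Ly6c2, Plac8, Chil3, F10 and Itga4 summed to 31.2 to 60.9 TPM in the glioma reference, 1797 to 4363 TPM in GFP-negative and 454 to 2060.2 TPM in GFP-positive cells, and all 6 were called higher in both sorted groups. In EAE their sum was 4.77 to 5.46 TPM in the reference, 35.3 to 88.5 TPM in GFP-negative and 4.92 to 13.6 TPM in GFP-positive cells, where Chil3 and F10 were at 0. Against the EAE reference 1 of these 6 markers was called higher in GFP-negative cells and 0 in GFP-positive cells. Between the EAE gates 1 was called lower and 0 higher, while P2ry14 had its highest EAE values in GFP-positive cells. The 4 dendritic cell markers summed to 121 to 407 TPM in GFP-negative and 5.08 to 129 TPM in GFP-positive glioma cells, against 9.89 to 15.9 TPM in the reference. All 4 dendritic cell markers and 2 of 6 monocyte-derived cell markers were called lower in GFP-positive than in GFP-negative glioma cells. The 4 markers of T and natural killer (NK) cells had 3 called higher in each sorted glioma group than in the reference. Neutrophil markers went the other way, summing to 330 to 375 TPM in the glioma reference, 194 to 300 TPM in GFP-negative and 72.0 to 110 TPM in GFP-positive cells. After the P28 stroke the monocyte-derived cell markers summed to 6.14 to 11.5 TPM in contralateral, 7.86 to 15.9 TPM in GFP-negative and 20.0 to 57.8 TPM in GFP-positive cells, and thus did not overlap between the gates, as P2ry14 did not, with Chil3 and F10 at 0 in GFP-positive cells. Of these markers Itga4 was called higher between the P28 gates, and Itga4 and Plac8 against contralateral cells. Dendritic cell markers had 0 calls between the P28 gates, while of the T and NK cell markers 1 was called lower and 3 were not tested. The border-associated macrophage markers summed to 8.57 to 15.0 TPM in GFP-negative and 16.5 to 36.9 TPM in GFP-positive P28 cells, where Pf4 was called higher. The 5 microglial markers summed to 15211 to 18274 TPM in GFP-negative and 9781 to 12839 TPM in GFP-positive P28 cells, and 4 of the 5 were called lower. The part of these cells in the glioma, EAE or P28 values of any of the 9 genes was not tested.

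P2ry6, the Gq-coupled UDP receptor linked to microglial phagocytosis, changed little between the gates. In cuprizone it fell by 0.50 (SE 0.09, adjusted p = 0.00259) on the log2 scale, and in the P28 stroke it fell by 0.37 (SE 0.07, adjusted p = 0.00244). After rescaling neither passed, at -0.20 (adjusted p = 0.255) and -0.03 (adjusted p = 0.824). The larger steps were against the reference in glioma, at -1.07 (SE 0.12, adjusted p = 2.02e-05) for GFP-negative cells, and in 5xFAD. In 5xFAD the reference held 915, 1041, 1218 and 1113 TPM, GFP-negative cells 520.5, 584, 598 and 749 TPM and GFP-positive cells 437, 408, 478 and 570.5 TPM. Both sorted 5xFAD groups lay below the reference and overlapped each other, with -0.81 (SE 0.13, adjusted p = 0.000835) for GFP-negative cells. In EAE the fall of GFP-negative cells against the reference, -0.41 (SE 0.09, adjusted p = 0.01), turned to 0.13 (adjusted p = 0.628) after rescaling, and the P28 stroke fall of GFP-positive cells against contralateral ones, -0.28 (SE 0.07, adjusted p = 0.00968), turned to 0.08 (adjusted p = 0.498). The falls of GFP-positive cells against the reference in EAE, -0.53 (SE 0.09, adjusted p = 0.00189), and cuprizone, -0.41 (SE 0.08, adjusted p = 0.00331), did not pass after rescaling either, at -0.06 (adjusted p = 0.843) and -0.07 (adjusted p = 0.688). Without the variance trend, 4 of these P2ry6 calls were lost, the cuprizone pair (0.0897 between the gates and 0.0865 against the reference), EAE GFP-negative cells (0.0768) and P28 GFP-positive cells (0.0539). P2ry6 differences between the gates passed in glioma without GFP-negative library 3 (adjusted p = 0.0368) and in 5xFAD without GFP-positive library 4 (adjusted p = 0.0481), where the full data gave 0.117 and 0.0924. The gene spans chr7:100937630-100974649 on the minus strand of build GRCm38.

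P2rx4, an ATP-gated channel known from rodent spinal microglia after nerve injury, was higher in GFP-positive cells than in the reference in all 6 models. In EAE the reference held 164, 206 and 176 TPM, GFP-negative cells 291, 304 and 298 TPM and GFP-positive cells 368, 369 and 406 TPM. The 3 EAE groups rose in that order without overlap, by 0.71 (SE 0.11, adjusted p = 0.0015) for the first step and by 0.35 (SE 0.11, adjusted p = 0.25) for the second, which did not pass. In cuprizone the values were 167, 183, 177 and 159 TPM in the reference, 219, 212 and 206 TPM in GFP-negative and 398, 366 and 414 TPM in GFP-positive cells. The gate carried the larger step there, at 0.88 (SE 0.10, adjusted p = 0.000135), against 0.31 (SE 0.09, adjusted p = 0.379) for GFP-negative cells and the reference.

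In the P28 stroke P2rx4 was at 189, 171, 159 and 164 TPM in GFP-positive cells, 113, 97.2, 79.8 and 77.1 TPM in GFP-negative and 80.9, 65.9, 86.4 and 72.0 TPM in contralateral cells. The GFP-positive libraries stood above all others, by 0.90 (SE 0.13, adjusted p = 0.000233) against GFP-negative cells. In the P6 stroke the rise against contralateral cells was 0.38 (SE 0.08, adjusted p = 0.0302), and it was lost without contralateral library 1, 2 or 4 or GFP-positive library 3 or 4, at adjusted p-values of 0.0612 to 0.0918. It was also lost without the filter (0.0542), without the variance trend (0.0856) and with only these 2 groups in the fit (0.073). In glioma and 5xFAD the differences between the gates did not pass, at 0.31 (SE 0.09, adjusted p = 0.0652) and 0.39 (SE 0.13, adjusted p = 0.0858). After rescaling they passed, at 0.50 (adjusted p = 0.0168) and 0.74 (adjusted p = 0.00274), and the glioma one also passed without GFP-positive library 1 (adjusted p = 0.0474). The P2rx4 gene spans chr5:122707544-122729738 on the plus strand, 16111 bases from P2rx7.

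P2rx7, the ATP-gated channel upstream of inflammasome activation and interleukin-1β release, lies beside P2rx4 on chromosome 5, at chr5:122643911-122691432 on the same strand. It was lower in sorted cells than in the reference in glioma, EAE and 5xFAD. In glioma the reference held 231, 171, 221 and 204 TPM, GFP-negative cells 69.3, 118, 62.4 and 86.0 TPM and GFP-positive cells 78.2, 78.3, 66.4 and 57.4 TPM. Both sorted groups lay below every reference library and overlapped each other, with -1.33 (SE 0.18, adjusted p = 8.29e-05) for GFP-negative cells and -0.22 (SE 0.18, adjusted p = 0.509) between the gates. Only in the P28 stroke did the gate pass, with 225, 231, 209.9 and 279.6 TPM in GFP-positive cells and 304, 316, 351 and 343 TPM in GFP-negative cells. These groups did not overlap and differed by -0.48 (SE 0.09, adjusted p = 0.0018), or -0.14 (adjusted p = 0.279) after rescaling. In EAE the call of GFP-negative cells against the reference, -0.88 (SE 0.23, adjusted p = 0.0192), was lost without reference library 1 (adjusted p = 0.0681) or 3 (adjusted p = 0.056), without the filter (0.0502) and after rescaling, at -0.34 (adjusted p = 0.206). That of GFP-positive EAE cells, -0.84 (SE 0.23, adjusted p = 0.021), was lost without reference library 1 or 3 or any 1 GFP-positive library, at 0.0513 to 0.073, without the filter (0.0547) and after rescaling, at -0.38 (adjusted p = 0.156). In 5xFAD GFP-negative cells lay at -0.73 (SE 0.15, adjusted p = 0.00424) against the reference, or -0.39 (adjusted p = 0.161) after rescaling, and in the P28 stroke GFP-positive cells lay at -0.51 (SE 0.09, adjusted p = 0.000846) against contralateral ones, or -0.15 (adjusted p = 0.221). The P6 stroke value of GFP-positive against contralateral cells, -0.23 (SE 0.09, adjusted p = 0.146), passed without GFP-positive library 1 at an adjusted p of 0.0489.

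Gpr34, a receptor for lysophosphatidylserine related to the P2Y family, fell between the gates in 5 models. In glioma the levels were 124, 116, 53.7 and 99.7 TPM in GFP-positive cells, 298, 748, 227 and 389 TPM in GFP-negative and 1998, 1662, 2640.4 and 2357 TPM in reference libraries. The groups did not overlap, and the differences were -1.99 (SE 0.33, adjusted p = 0.00539) between the gates and -2.50 (SE 0.33, adjusted p = 6.37e-05) for GFP-negative cells against the reference. In cuprizone the levels were 1303, 1236 and 1076 TPM in GFP-positive cells and 2575, 2255 and 2279 TPM in GFP-negative cells, a difference of -0.98 (SE 0.09, adjusted p = 3.02e-05). Both cuprizone groups were tight and far apart. In 5xFAD the gates differed by -0.68 (SE 0.08, adjusted p = 5.47e-05), and GFP-negative cells lay at -0.48 (SE 0.08, adjusted p = 0.000809) against the reference, or -0.13 (adjusted p = 0.397) after rescaling and 0.0599 as the adjusted p without the variance trend. In the P28 stroke Gpr34 held 1145, 1007, 1129 and 1486 TPM in GFP-positive cells and 2308, 1877, 1839 and 2198 TPM in GFP-negative cells, 2 groups without overlap that differed by -0.79 (SE 0.13, adjusted p = 0.00053). The EAE difference between the gates, -0.44 (SE 0.08, adjusted p = 0.0486), was lost without any of 8 of the 9 libraries, at adjusted p-values of 0.0914 to 0.238, and kept without GFP-negative library 1. It was also lost after rescaling (-0.52 (adjusted p = 0.288)), at a pseudocount of 0.1 (0.0554), without the filter (0.117), without the variance trend (0.382) and with only the 2 gates in the fit (0.171).

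Gpr34 lies on chromosome X at chrX:13632089-13640858, plus strand, inside Cask, a scaffold kinase gene of the minus strand, and Cask fell in several of the same comparisons. In the EAE reference Cask was at 43.5 ± 9.65 TPM, in GFP-negative cells at 3.91 ± 1.24 TPM and in GFP-positive cells at 2.54 ± 0.868 TPM (SD, n = 3). Both sorted groups were lower than the reference, at -3.18 (SE 0.30, adjusted p = 5.34e-05) for GFP-negative cells, beside -1.54 (SE 0.08, adjusted p = 9.89e-07) for Gpr34. Between the gates Cask was lower in cuprizone, at -1.29 (SE 0.30, adjusted p = 0.0168), in 5xFAD, at -1.59 (SE 0.24, adjusted p = 0.000648), and in the P28 stroke, at -1.13 (SE 0.15, adjusted p = 0.000174). Without strand in the libraries, reads of the 2 overlapping genes cannot be told apart where both could have given them.

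Adora3, a Gi-coupled adenosine receptor, fell between the gates in cuprizone, glioma, 5xFAD and the P28 stroke. In 5xFAD the reference held 85.8, 95.2, 99.9 and 109.7 TPM, GFP-negative cells 59.2, 60.5, 67.8 and 70.2 TPM and GFP-positive cells 34.1, 27.2, 26.8 and 31.7 TPM. The 3 groups were separate, with -1.08 (SE 0.15, adjusted p = 0.000333) between the gates and -0.59 (SE 0.15, adjusted p = 0.0172) for GFP-negative cells against the reference. The latter was lost without GFP-negative library 1 or 2, at adjusted p-values of 0.0622 and 0.0568, and after rescaling, at -0.25 (adjusted p = 0.412). The glioma difference between the gates, -1.02 (SE 0.27, adjusted p = 0.0379), was lost without any of 8 libraries, reference 1 or 3, GFP-negative 1, 2 or 4 and GFP-positive 2, 3 or 4, at 0.0534 to 0.124. It was also lost after rescaling (-0.84 (adjusted p = 0.0744)), without the filter (0.0885), without the variance trend (0.062) and with only the 2 gates in the fit (0.0715). In cuprizone GFP-positive cells held 43.4, 58.6 and 41.9 TPM and GFP-negative cells 89.5, 89.8 and 107 TPM, groups without overlap that differed by -0.99 (SE 0.19, adjusted p = 0.00613). In EAE it did not pass, at -0.63 (SE 0.14, adjusted p = 0.0765), and passed without GFP-negative library 1 at an adjusted p of 0.0434. After rescaling Adora3 did not pass in the P28 stroke, at -0.20 (adjusted p = 0.38) between the gates and -0.31 (adjusted p = 0.126) for GFP-positive against contralateral cells, or in GFP-negative EAE cells, at -0.09 (adjusted p = 0.779) against the reference. Tmigd3, which overlaps Adora3 at chr3:105870858-105908926 on the same strand of chromosome 3, reached at most 8.59 TPM in any library.

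Adora1, the other Gi-coupled adenosine receptor, was called higher in GFP-positive cells than in the reference in cuprizone, glioma, EAE, 5xFAD and the P28 stroke, the 5 models where Adora3 was called lower. These calls are without rescaling, after which the Adora3 fall in the P28 stroke did not pass in limma, at -0.31 (adjusted p = 0.126). Adora1 had a mean of 10 TPM or more in the higher group of a called comparison in 3 models. In EAE its mean was 1.15 ± 0.33 TPM in the reference, 39.7 ± 14.3 TPM in GFP-negative and 36.6 ± 1.77 TPM in GFP-positive cells (SD, n = 3). Adora1 rose by 4.18 (SE 0.29, adjusted p = 6.34e-06) in GFP-negative EAE cells, while the gates differed by -0.04 (SE 0.29, adjusted p = 0.973). In 5xFAD it was at 0, 0.53, 2.73 and 0 TPM in the reference, 5.69, 5.44, 9.21 and 12.2 TPM in GFP-negative and 13.7, 11.4, 12.7 and 14.3 TPM in GFP-positive cells, a rise of 3.18 (SE 0.43, adjusted p = 4.05e-05) for the last against the first. In the P28 stroke the rise lay at the gate, with 13.6, 9.40, 4.06 and 5.02 TPM in GFP-positive cells and 2.15, 2.13, 0.72 and 0.79 TPM in GFP-negative cells and a difference of 1.81 (SE 0.36, adjusted p = 0.00226). The 2 P28 gates did not overlap. In glioma Adora1 rose by 3.04 (SE 0.61, adjusted p = 0.0012) in GFP-negative cells against the reference, and Adora2b, a Gs-coupled adenosine receptor, by 2.73 (SE 0.38, adjusted p = 0.000101), in the libraries where the monocyte-derived cell markers were high.

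**Figure D4:**
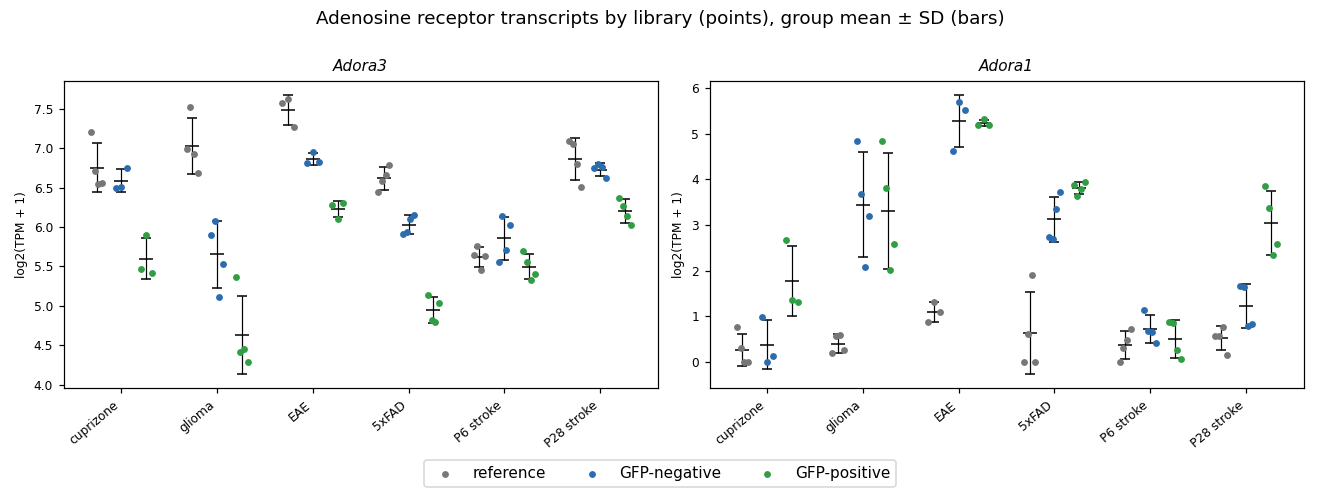
Level of Adora3 (left) and Adora1 (right) as log2(TPM + 1) (y axes, which differ) in every library (points) of the reference (grey), GFP-negative (blue) and GFP-positive (green) groups of the 6 models (x axis), with bars for the group mean ± SD. In EAE Adora3 descends from reference to GFP-positive cells, while Adora1 stands near 39.7 and 36.6 TPM in the sorted groups and at 1.15 TPM in the reference.

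Entpd1 fell between the gates in cuprizone, 5xFAD and the P28 stroke, and against the reference in GFP-positive cells of every model except the P6 stroke. In the P28 stroke its GFP-positive libraries held 315, 289, 299 and 488 TPM, its GFP-negative libraries 840.2, 725, 702 and 845 TPM and its contralateral libraries 872, 779, 836 and 821 TPM. The GFP-positive group lay below the others, with the fourth library apart from the other 3, and differed by -1.19 (SE 0.14, adjusted p = 7.75e-05) from GFP-negative cells. In cuprizone GFP-positive cells held 402, 426 and 401 TPM and GFP-negative cells 739.8, 834 and 812 TPM, a difference of -0.95 (SE 0.08, adjusted p = 1.7e-05) without overlap. In glioma GFP-positive cells held 332, 268, 244 and 231 TPM, GFP-negative cells 293, 345, 249 and 229.6 TPM and the reference 683, 602, 691 and 694 TPM. The glioma gates overlapped, at -0.05 (SE 0.14, adjusted p = 0.866), while GFP-negative cells lay -1.27 (SE 0.14, adjusted p = 1.41e-05) from the reference. In 5xFAD GFP-negative cells lay at -0.59 (SE 0.10, adjusted p = 0.00128) against the reference, or -0.25 (adjusted p = 0.198) after rescaling. The gene spans chr19:40612366-40741602 on the plus strand of build GRCm38. Enpp1, a second ectoenzyme that splits ATP to AMP, moved the other way, from 7.91 ± 2.28 TPM in the EAE reference to 29.2 ± 0.352 TPM in GFP-positive cells (SD, n = 3), a rise of 1.79 (SE 0.34, adjusted p = 0.0032). After the P28 stroke Enpp1 rose between the gates by 0.86 (SE 0.19, adjusted p = 0.00479).

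Counted by model, all 9 genes passed between the P28 stroke gates, 7 lower and 2 higher, at a background of 29% of all genes, 23.2% lower and 5.86% higher. In cuprizone 7 of 8 passed (10.2% of all genes), in 5xFAD 5 of 9 (8.16%), in glioma 4 of 9 (6.67%) and in EAE 2 of 9 (0.688%). After rescaling, the gates differed for 6 of 9 genes in the P28 stroke (15.7% of all genes) and in 5xFAD (5.21%), for 6 of 8 in cuprizone (6.11%), 3 of 9 in glioma (5.23%) and 1 of 9 in EAE (0.579%). Against the reference, GFP-negative cells passed for 9 of 9 genes in glioma (52.8% of all genes) and in EAE (30.3%) and for 7 of 9 in 5xFAD (12.7%). After rescaling 9 of 9 passed in glioma (37.8%) and 6 of 9 in EAE (13.7%), while in 5xFAD 2 were lower and 1 higher, beside 1.65% and 5.63% of all genes. GFP-positive cells passed against the reference for 9 of 9 genes in glioma (63.7%), EAE (29.8%) and the P28 stroke (36%), for 8 of 9 in 5xFAD (40%), for 7 of 8 in cuprizone (18.2%) and for 1 of 9 in the P6 stroke (3.11%). The rescaled counts were 9 of 9 in glioma (51.7%), 7 of 9 in EAE (17%), 6 of 9 in the P28 stroke (21.5%), 8 of 9 in 5xFAD (20.7%), 6 of 8 in cuprizone (10.6%) and 1 of 9 in the P6 stroke (1.1%).

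No gene of the 9 passed between GFP-negative cells and the reference in limma for cuprizone (0.163% of all genes), the P6 stroke (0.274%) or the P28 stroke (0.238%). Unadjusted p-values were under 0.05 for 2 genes in cuprizone, 1 in the P6 stroke and 0 in the P28 stroke. Between the P6 gates 0 of 9 passed in limma, beside 3.36% of all genes, and 4 had an unadjusted p under 0.05. P2ry12 held 3401, 2863, 2947 and 4219 TPM in GFP-positive cells, 4428, 3779, 3679.8 and 5211 TPM in GFP-negative and 5001, 4549, 3672 and 4853 TPM in contralateral P6 libraries. These groups overlapped, and the gates differed by -0.35 (SE 0.14, adjusted p = 0.16). P2ry12 was lower in the GFP-positive library of each same-numbered pair. With a limma term for the library number (a replicate block) it passed, at adjusted p = 0.0245 between the gates and 0.016 against contralateral cells. The labels do not say whether these numbers mark the same mice.

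Stroke at the 2 ages gave different responses at the gate for 6 of the 9 genes, beside 10.4% of all genes tested in both tables. These changes are without rescaling, and the median gene moved between the gates by -0.12 at P6 and -0.30 at P28. The difference P28 minus P6 of the change between GFP-positive and GFP-negative cells was -0.996 (SE 0.21, adjusted p = 0.00215) for P2ry12 and -1.13 (SE 0.19, adjusted p = 0.000384) for P2ry13, both more negative at P28. Neither P6 value passed on its own in the fit without a replicate block. It was -1.06 (SE 0.18, adjusted p = 0.000259) for Entpd1 and -0.73 (SE 0.19, adjusted p = 0.0156) for Gpr34. For P2rx4 and P2ry14 the change was higher at P28, by 0.72 (SE 0.15, adjusted p = 0.0031) and 1.79 (SE 0.49, adjusted p = 0.0181). P2ry6, P2rx7 and Adora3 did not pass, at -0.24 (SE 0.10, adjusted p = 0.121), -0.28 (SE 0.13, adjusted p = 0.169) and -0.17 (SE 0.18, adjusted p = 0.631). P28 GFP-negative libraries of P2ry12 held 7176, 5933, 5927 and 6910.0 TPM and GFP-positive ones 2522, 2015, 2265 and 3606 TPM, without overlap. Between GFP-negative and contralateral cells 0 of 9 genes differed between the ages in this limma-based test, beside 0.0483% of all genes, and 0 had an unadjusted p under 0.05. Age at injury, days from injury to collection, tissue age and sex composition differ between the 2 tables together and cannot be told apart.

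**Figure D5:**
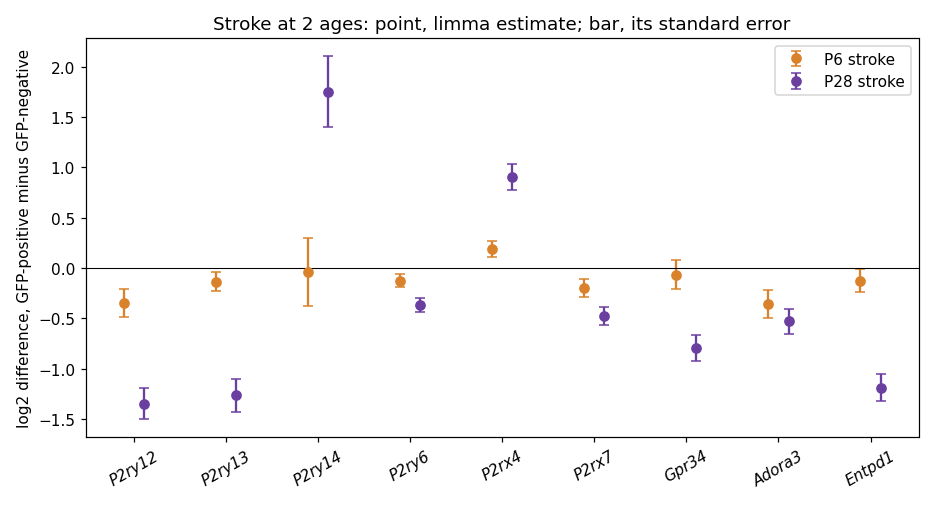
Log2 difference between GFP-positive and GFP-negative cells (y axis) for each of the 9 genes (x axis) after stroke at P6 (orange) and P28 (purple), with points for limma estimates and bars for their standard errors. P2ry12 stands at -0.35 and -1.35, and P2ry14 at -0.04 and 1.75, at P6 and P28.

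Across all 6 models, the change between the gates differed for P2ry12 (adjusted p = 5.49e-06), P2ry13 (adjusted p = 1.41e-05), Entpd1 (adjusted p = 5.74e-06), Gpr34 (adjusted p = 0.00028) and P2rx4 (adjusted p = 0.000776). That was 5 of the 8 genes tested in every table, beside 16.8% of all genes, in a heterogeneity F test weighting each model's limma fold change by its moderated SE. It did not pass for P2ry6 (adjusted p = 0.0808), Adora3 (adjusted p = 0.062) or P2rx7 (adjusted p = 0.298). The P6 stroke set itself apart from the mean of the other 5 models for 5 of 8 genes, beside 7.74% of all genes, with 1.19 (SE 0.16, adjusted p = 5.36e-05) for P2ry12 and 0.87 (SE 0.12, adjusted p = 1.84e-05) for P2ry13. In glioma Entpd1 differed from the mean of the other 5 models by 0.62 (SE 0.15, adjusted p = 0.0481), 1 of 8 genes beside 1.36% of all. In cuprizone and EAE 2 of 8 genes each set the model apart, beside 1.25% and 0.973% of all, with -0.59 (SE 0.15, adjusted p = 0.0468) and 0.47 (SE 0.11, adjusted p = 0.0436) for P2ry12. These comparisons of models used values without rescaling, and the median gene moved by 0.05 in EAE but by -0.25 in cuprizone. After rescaling, P2ry12 changed between the gates by -1.02 in EAE, -1.54 in cuprizone, -2.17 in glioma and -0.85 in 5xFAD. Its rescaled change was -0.22 in the P6 stroke and -1.01 in the P28 stroke. In 5xFAD 0 of 8 passed in this limma-based test, beside 0.947% of all, and 2 had an unadjusted p under 0.05. The P28 stroke change of Entpd1 lay below the mean of the other 5 models, at -0.74 (SE 0.15, adjusted p = 0.00532), and that of P2rx4 above it, at 0.48 (SE 0.13, adjusted p = 0.0473), 2 of 8 genes beside 5.19% of all.

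The change from the reference to GFP-negative cells differed between models for 8 of 8 genes, beside 46.8% of all genes. Glioma stood apart for 7 of 8 (36.3% of all genes), with -2.06 (SE 0.34, adjusted p = 0.000427) for Gpr34 and -1.92 (SE 0.35, adjusted p = 0.00097) for P2ry12 against the other 5 models. EAE stood apart for 4 of 8 (8.38% of all genes), with -1.17 (SE 0.11, adjusted p = 2.66e-09) for P2ry12 and -0.84 (SE 0.12, adjusted p = 0.000286) for Entpd1. The P6 stroke stood apart for 7 of 8 (17.8% of all genes), the P28 stroke for 6 (15.1%), cuprizone for 6 (5.07%) and 5xFAD for 2 (3.24%). In the P6 stroke, the P28 stroke and cuprizone every such value was positive, with 1.03, 1.05 and 0.80 for P2ry12. Within each of these models 0 genes of the 9 passed between GFP-negative cells and the reference. The mean of the other 5 models holds the falls of glioma and EAE. The models also differ in their reference, WT brain or contralateral cortex, and this cannot be told apart from the model. Here too values were not rescaled, and the median gene moved by -0.37 in glioma, -0.47 in EAE and -0.28 in 5xFAD. In cuprizone, the P6 stroke and the P28 stroke it moved by -0.03, -0.05 and -0.01.

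Of 40 other purinergic genes listed by role, 141 comparisons per contrast could be tested. Between the gates 3 were higher and 21 lower, for GFP-negative cells against the reference 12 higher and 23 lower, and for GFP-positive cells against the reference 19 higher and 50 lower. As shares of the 141 tests, 2.13% were higher and 14.9% lower between the gates, beside 2% and 7.88% of all gene tests. The shares were 8.51% and 16.3% for GFP-negative cells, beside 4.48% and 12.1%, and 13.5% and 35.5% for GFP-positive cells against the reference, beside 7.42% and 24.9%. After rescaling the counts became 4 higher and 9 lower, 14 higher and 9 lower, and 25 higher and 26 lower, where 3.68% and 2.37%, 6.5% and 3.76%, and 12.2% and 8.75% of all gene tests were higher and lower. For GFP-positive cells against the reference, adenosine receptors had 6 higher and 0 lower of 7 tests, ectonucleotidases 5 and 0 of 7, P2X channels 0 and 6 of 10, other P2Y receptors 6 and 5 of 14, adenosine handling genes 2 and 13 of 37, intracellular NTPDases 0 and 4 of 24 and genes of nucleotide release and coupling 0 and 22 of 42. These counts by role are without rescaling, which took the lower calls of the whole list from 50 to 26. P2ry10b, a relative of P2ry10 with which it could share reads, fell in GFP-positive P28 cells to 10.0 ± 3.59 TPM from 28.5 ± 5.03 TPM in GFP-negative ones (SD, n = 4), at -1.45 (SE 0.23, adjusted p = 0.00057). P2ry10, a receptor of lymphoid cells, was higher in GFP-negative glioma cells (30.6 ± 9.01 TPM) than in GFP-positive ones (7.29 ± 4.79 TPM; SD, n = 4), at -2.05 (SE 0.45, adjusted p = 0.018), beside the higher dendritic cell markers of the former. The ATP channel gene P2rx1 fell in GFP-positive cuprizone cells, at -2.05 (SE 0.50, adjusted p = 0.0191) against GFP-negative ones.

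Pnp, purine nucleoside phosphorylase, was at 103 ± 10.4 TPM in GFP-positive cells and 187 ± 11.1 TPM in GFP-negative P28 cells (SD, n = 4), a difference of -0.86 (SE 0.09, adjusted p = 3.3e-05). In GFP-negative glioma cells Pnp rose by 0.42 (SE 0.16, adjusted p = 0.044) against the reference. The equilibrative nucleoside transporters Slc29a1, at the plasma membrane, and Slc29a3, in lysosomes, fell in GFP-positive 5xFAD cells against the reference, at -1.19 (SE 0.12, adjusted p = 2.81e-06) and -1.40 (SE 0.18, adjusted p = 1.75e-05). Among the organelle NTPDases, Entpd6 and Entpd4 fell in GFP-negative glioma cells, at -0.68 (SE 0.15, adjusted p = 0.00253) and -1.42 (SE 0.26, adjusted p = 0.000612). Pik3cg, the PI3-kinase catalytic subunit driven by Gi-coupled receptors, fell between the P28 gates, at -0.94 (SE 0.12, adjusted p = 0.000105). Kcnk13, which encodes the THIK-1 potassium channel that microglial P2Y12 signalling can open, fell there at -0.36 (SE 0.10, adjusted p = 0.019), beside the shift of -0.30 of the median gene, and the Gi subunit gene Gnai2 fell in GFP-positive P28 cells against contralateral ones, at -0.57 (SE 0.12, adjusted p = 0.00241). All these values are without rescaling. Against the reference, the median gene moved by -0.37 in GFP-negative glioma, -0.57 in GFP-positive 5xFAD and -0.33 in GFP-positive P28 cells.

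Over the 67 libraries, with log2(TPM + 1) centred within each table, the genes most like each of the 9 were sought among the 11301 genes tested in every table. P2ry12 was most like Slc2a5 (Pearson r = 0.986), Selplg (0.986) and Ltc4s (0.981), P2ry13 most like P2ry12 (0.975), Selplg (0.971) and 0610040J01Rik (0.971), and Gpr34 most like Cst3 (0.976), P2ry12 (0.975) and Ltc4s (0.972). Adora3 was most like the microglial marker Tmem119 (0.941), then Scamp2 (0.933) and Itpripl1 (0.933). P2rx4 was most like Apoe (0.930), Itgax (0.894) and Ly9 (0.889), where Apoe encodes a lipid carrier and Itgax an integrin subunit. P2ry14 was most like Il18bp (0.891), Gbp6 (0.886) and Cfb (0.886), of which Gbp6 encodes an interferon-induced GTPase. P2ry6 was most like Gtf2h2 (0.943), Insr (0.930) and Adap2 (0.927), P2rx7 most like Cyth4 (0.926), Czib (0.923) and Ivns1abp (0.917), and Entpd1 most like Calm2 (0.954), Ythdf2 (0.950) and Eng (0.947). Within the 9 genes, P2ry12 had r = -0.79 with P2rx4 and -0.78 with P2ry14. The libraries share groups, tables and the TPM total, so these values describe the 67 libraries and carry no test.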

How the data were processed

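Bulk RNA of 67 libraries entered the analysis, and 4 single-cell pools did not. The deposited values are TPM per gene, 1 table for each model, and per the submitters' processing notes the tools were cutadapt 2.10, STAR 2.7.5c and RSEM 1.3.3, with the builds GRCm38 and mm10. Groups came from the labels, and all 55413 genes of each table were read. In limma 3.58.1 (R 4.3.3), log2(TPM + 1) was fitted within each table with its 3 groups and a mean-variance trend, for genes at 1 TPM or more in at least the number of libraries of the smallest group, and adjusted by the Benjamini-Hochberg method over 12532 to 14461 genes per contrast. Models were compared from the within-table estimates and their moderated standard errors, with Satterthwaite degrees of freedom for pairs. The fits were also run on simulated data with independent normal values for each gene. That simulation held no shift of the median gene, so it cannot show how such a shift affects the calls. Alternatives were pseudocounts of 0.1 and 5, no filter and a filter of 5 TPM, median-of-ratios rescaling, no variance trend, a replicate block, a sex term, fits on 2 groups and leaving out each library. One marker of the microglial list is not reported here. The members and gene lists were chosen with earlier results of these data known. Named are all 9 genes, Spp1, genes overlapping a member, up to 3 other purinergic genes per role that passed with 10 TPM or more in the higher group, and the 3 genes most like each member. Without read counts the depth is unknown, and the number of libraries limits the precision. Positions came from GENCODE release M21 and promoters from RefSeq. Figures used matplotlib 3.10.9 in Python 3.11.15.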

Additional observations from a re-analysis of the deposited data

Results flagged for a closer look

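In groups of 4 libraries, 1 library stood apart from the other 3 by Dixon's 95% criterion in 5 of 117 groups, where chance gives about 1 in 20. These were P2ry14 in cuprizone reference library 3 (2.55 TPM), Adora3 in GFP-positive glioma library 1 (40.2 TPM), Entpd1 in glioma reference library 2 (602 TPM), P2ry13 in GFP-positive P6 stroke library 4 (533 TPM) and Entpd1 in GFP-positive P28 stroke library 4 (488 TPM).

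The change between GFP-positive and GFP-negative cells differed between the 6 models for P2ry12 (adjusted p = 5.49e-06), P2ry13 (adjusted p = 1.41e-05), P2rx4 (adjusted p = 0.000776), Gpr34 (adjusted p = 0.00028) and Entpd1 (adjusted p = 5.74e-06), by the heterogeneity F test on limma fold changes. The change between GFP-negative cells and the reference differed for P2ry12 (adjusted p = 1.05e-13), P2ry13 (adjusted p = 1.9e-09), P2ry6 (adjusted p = 2.21e-08), P2rx4 (adjusted p = 0.035), P2rx7 (adjusted p = 7.07e-06), Gpr34 (adjusted p = 8.29e-12), Adora3 (adjusted p = 0.000238) and Entpd1 (adjusted p = 6.55e-09).

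Stroke at P28 and at P6 differed in the change between the gates, with P28 minus P6 values of -0.996 (SE 0.21, adjusted p = 0.00215) for P2ry12, -1.13 (SE 0.19, adjusted p = 0.000384) for P2ry13, 1.79 (SE 0.49, adjusted p = 0.0181) for P2ry14, 0.72 (SE 0.15, adjusted p = 0.0031) for P2rx4, -0.73 (SE 0.19, adjusted p = 0.0156) for Gpr34 and -1.06 (SE 0.18, adjusted p = 0.000259) for Entpd1.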

How the results depend on the processing

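Leaving out 1 library at a time gave 25 to 28 calls between the gates (27 with all libraries), 24 to 25 for GFP-negative cells against the reference (25) and 42 to 44 for GFP-positive cells against the reference (43). Genes differing between the 6 models numbered 5 to 6 at the gate and 7 to 9 against the reference, and those differing between the stroke ages 5 to 7 and 0. Calls of 1 model against the other 5 ranged from 40 to 49 around 44, calls of other purinergic genes from 121 to 134 around 128 and of neighbouring genes from 20 to 24 around 22. Without the variance trend, 1 model differed from the other 5 in 29 values, and the cause was not tested. Rescaling ended 21 calls of single differences and added 3. Of the 21, 19 kept their direction and 2 changed sign, P2ry6 in EAE GFP-negative cells against the reference (0.13, adjusted p = 0.628) and in GFP-positive P28 cells against contralateral ones (0.0802, adjusted p = 0.498). Over all alternatives pooled, including the fits without 1 library, 49 other sign changes were of differences called in neither setting. The largest of these had a size of 0.201 on the log2 scale in the main fit. Pseudocounts of 0.1 and 5 ended 1 and 0 calls, no filter 6, a filter of 5 TPM 0, no variance trend 10, fits on 2 groups 4 and a sex term 0. The sex term could be fitted only in cuprizone and the P6 stroke, where both sexes were present.

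The labels do not say whether same-numbered libraries came from the same mice, and the correlations did not settle it. In no contrast of any table did every same-numbered pair correlate above 0.1, a chosen cut-off that cannot exclude pairing. With the replicate block, P2ry6 in 5xFAD (adjusted p = 0.0343) and P2ry12 in the P6 stroke (0.0245) passed between the gates, and so did P2ry12 in GFP-positive P6 cells against contralateral ones (0.016), while Gpr34 in EAE (0.0914) and P2ry13 in glioma (0.0562) no longer passed between the gates. The block changed no other call. Every library correlated best with its own number in the P6 stroke for GFP-negative against contralateral cells, and in no other contrast.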
